A study of Mus musculus with 22 samples.

Results

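The miR-30 family was represented on the panel by 5 probes, mmu-miR-30a, mmu-miR-30b, mmu-miR-30c, mmu-miR-30d and mmu-miR-30e, out of 566 mouse miRNA probes. They were chosen by name, without star strands, and all 5 were found. The samples were 22 in all, namely 5 uninduced fallopian tubes as controls (CT), 5 tubes induced with doxycycline (FT) and 5 metastatic tumors (M), together with plasma of 3 control mice (CS) and 4 tumor-bearing mice (TS). The mice carried conditional alleles of Brca1 or Brca2, among others, under a Pax8-Cre system that doxycycline switches on, Pax8 being a transcription factor of the secretory cells of the tube. The control tubes carried the floxed alleles without induction. CT1 and CT3 were Brca1 fl/fl, CT2 was Brca1 fl/+, CT4 was Brca2 fl/fl and CT5 was Brca2 fl/+. Among the induced tubes, FT2 was Brca1 -/-, FT4 was Brca2 -/-, and FT1, FT3 and FT5 were Brca2 -/+. Among the tumors, M1 and M3 were Brca2 -/-, M4 was Brca2 -/+, and M2 and M6 were Brca1 -/+. M6 was labelled as an ovarian tumor but titled a metastasis, and the other 4 tumors were peritoneal. The Cre acts only in cells that express Pax8, so the genotypes do not hold for the stroma, vessels and blood within each sample. Plasma and tube were matched by mouse, TS1 to FT2, TS2 to FT3, TS3 to FT4 and TS4 to FT5, and CS2, CS3 and CS4 to the CT sample of the same number. Ages were not given in the sources used here. One sample label calls the TS material serum, whereas the sample titles and the paper call it plasma.

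miRNAs are short RNAs that guide Argonaute proteins to messenger RNAs, mainly through their seed, the bases near the 5′ end that pair with the target. The miR-30 members share a seed and are transcribed from clustered hairpins, so several genomic copies act on overlapping sets of targets. They are abundant in epithelia such as that of the kidney, and are known to repress Snai1, a transcription factor that switches off epithelial genes in epithelial-mesenchymal transition.

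The mature sequences are shown because the members differ by so few bases that 1 probe could also bind another member. They were taken from RefSeq (GRCm38.p6), run 5′ to 3′, and have the seed (bases 2 to 8) in capitals. RefSeq mature sequences were matched for miR-30a, miR-30c and miR-30e, 3 of the 5 members, and miR-30b and miR-30d are given by name. The only other mature miRNA of that table with the same seed was miR-384-5p, which is also on the panel.
miR-30a-5p: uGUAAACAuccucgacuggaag
miR-30c-5p: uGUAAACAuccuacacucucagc
miR-30e-5p: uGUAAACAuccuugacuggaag
miR-384-5p: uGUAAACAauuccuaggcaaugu

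Counting positions from 1 at the 5′ end and giving the miR-30a base first, miR-30e differs from miR-30a by 1 substitution, C13U, over the 22 positions. miR-30c differs from miR-30a by 5 substitutions, C13A, G14C, G18C, G19U and A20C, and is 1 base longer. The first 12 positions are thus shared by these 3 members. miR-384-5p departs from miR-30a directly after the seed, with 10 differences from position 9 on. Mature miR-30a lies at chr1:23272274-23272295 on the plus strand. miR-30c is made from 2 hairpins, at chr1:23291714-23291736 on the plus strand and at chr4:120769584-120769606 on the minus strand, and its probe cannot tell these apart. miR-30e lies at chr4:120772660-120772681 on the minus strand. The Mir30a and Mir30c-2 hairpins are 19361 bases apart and lie in no protein-coding gene of the RefSeq table. Mir30c-1 and Mir30e are 2983 bases apart within Nfyc, which encodes a subunit of the transcription factor NF-Y. Mir30b and Mir30d neighbour each other on chromosome 15, also outside protein-coding genes.

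In the nCounter assay a tagged miRNA is captured by a barcoded probe, and the barcodes are counted one by one. Input was 100 ng of RNA for tissue and 10 ng for plasma. The summed miRNA count of a tissue sample was between 70164 and 598321, and that of a plasma sample between 18350 and 269005. Values below are normalized counts, that is, counts scaled by a geometric mean taken over the top 100 miRNAs in tissue or the top 30 in plasma. Tissue and plasma were scaled apart, so their levels are not compared. A count was called above background when it exceeded the mean plus 2 SD of the 8 negative controls of its sample, a level of 18.3 to 67.7 counts. By this rule 68 of the 75 tissue values and 26 of the 35 plasma values of the members were above background. All values of miR-30a and miR-30c were above it, as were the tissue values of miR-30d. miR-30b fell short of it in 6 samples (FT2, M1, M4, CS2, CS3 and TS2), miR-30e in 8 (FT2, M1, M3, M4, CS2, CS3, TS1 and TS3) and miR-30d in 2 (CS2 and CS3). miR-384-5p was above background in 0 of 22 samples, with 5 to 27 counts each, so this seed relative was not detectable at this depth. The tubal markers were present in CT, where miRNAs of ciliated epithelium summed to 312 to 3767 normalized counts and miRNAs of epithelium to 9285 to 11037.5.

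**Figure D1:**
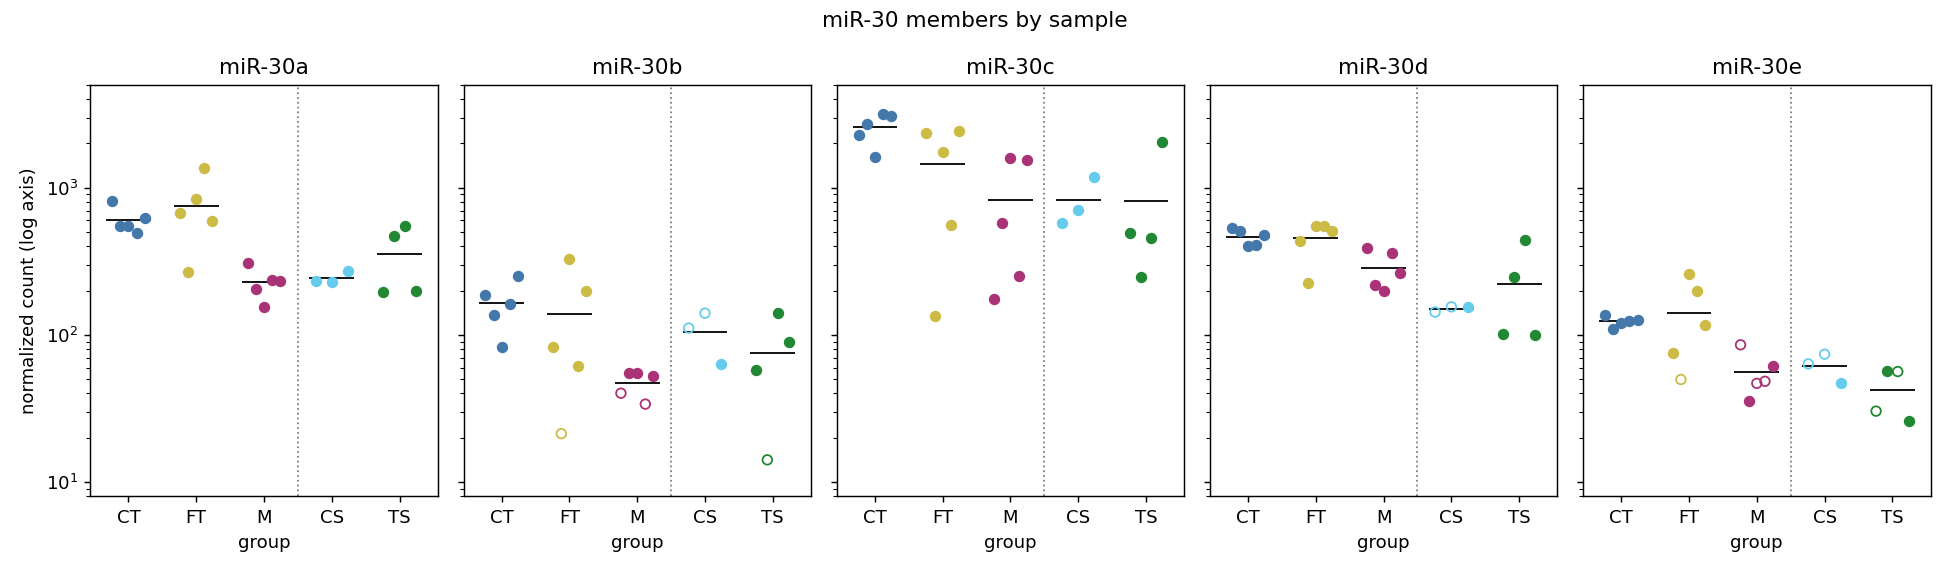
Normalized counts (log axis) of the 5 miR-30 members in every sample, by group. Each point is a sample, open points are not above the negative controls, black lines are group means, and the dotted line separates tissue from plasma, which were scaled apart. All 5 M samples lie below all 5 CT samples in each panel, and miR-30c spreads 18.1-fold within FT.

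In the control tubes miR-30e and miR-30d varied little from mouse to mouse, with coefficients of variation of 8.04% and 12.3%, and miR-30b varied 3.05-fold. miR-30e varied least, with normalized counts of 137 in CT1, 109 in CT2, 119.8 in CT3, 125 in CT4 and 126 in CT5, a mean of 123 ± 9.92 (SD, n = 5). miR-30d was 466 ± 57.3 (SD, n = 5), miR-30a 605 ± 125 (SD, n = 5) and miR-30b 164 ± 62.4 (SD, n = 5). miR-30c was 2577 ± 641 (SD, n = 5). By count, miR-30c ranked between 15 and 29 among the 566 miRNAs in CT, miR-30a between 38 and 49, miR-30d between 46 and 53, miR-30b between 64 and 90 and miR-30e between 78 and 89. Probes differ in efficiency, so these ranks describe counts and do not order the molecules.

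The comparison of M with CT asked which miRNAs differ between metastatic tumors and the normal tube. On the scale used here all 5 members were lower in M, without overlap between the groups. Of them 3, miR-30a, miR-30b and miR-30e, passed the test (edgeR, Benjamini-Hochberg over the 566 miRNAs, threshold 0.05). Over all miRNAs, 14.5% passed the test, 4.24% passed it as lower in M, 5.12% were lower in M without overlap, and 39.9% had a log2 fold change below 0. Among the 133 miRNAs that averaged 50 counts or more, which leaves out probes near background, 14.3% passed as lower. The median log2 fold change was -1.41 over the members and 0.29 over all miRNAs. In such bulk samples, fewer cells that express a miRNA and less of it per cell cannot be told apart.

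miR-30b had the lowest adjusted p of the members in this fit, though not with sample numbers as a block. Its normalized counts were 188, 136, 82.2, 163 and 251 in CT1 to CT5, against 40.1 in M1, 54.9 in M2, 55.1 in M3, 33.8 in M4 and 52.5 in M6. Every tumor was below the lowest tube, CT3. The log2 fold change was -1.78 (standard error 0.41, adjusted p = 0.00576 by edgeR), and the call held when any single sample was left out (adjusted p from 0.00602 to 0.0187). It was lost with positive ligation control scaling (adjusted p = 0.330), with CT, FT and M fitted together (0.0586) and with sample numbers as a block (0.0650). The numbers of CT and M do not mark the same mouse, and the block left out CT5 and M6. The tumor counts before scaling were only 14 to 77, and those of M1 and M4 were not above the negative controls, so the size of the fall is uncertain. With the negative controls subtracted it was -2.48.

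miR-30a was 813, 548, 549, 492 and 625 in CT1 to CT5, and 310.3, 205, 154, 237 and 233 in M1, M2, M3, M4 and M6. The highest tumor, M1, was below the lowest tube, CT4, and all tumor counts (56 to 342) were above background. The log2 fold change was -1.41 (standard error 0.42, adjusted p = 0.0340 by edgeR). miR-30e, which differs from miR-30a in the 1 base given above, was 85.6, 35.4, 46.8, 48.3 and 61.4 in the tumors. Again every tumor was below every tube, the lowest of which was CT2 at 109. Its log2 fold change was -1.16 (standard error 0.37, adjusted p = 0.0429 by edgeR), and M1, M3 and M4 were not above the negative controls. The calls of miR-30a and miR-30e were less firm than that of miR-30b. That of miR-30a was lost without any single CT sample or without M2 or M3 (adjusted p up to 0.101), and that of miR-30e without any CT sample or without M2, M3 or M4 (up to 0.103).

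miR-30c had the most scattered tumor values, 177 in M1, 574 in M2, 1589.8 in M3, 251 in M4 and 1546 in M6, against 2286, 2725, 1616, 3188 and 3069 in CT1 to CT5. M3 and M6 came close to the lowest tube, CT3, and the other 3 tumors were far below it. The log2 fold change was -1.64 (standard error 0.60, adjusted p = 0.0780 by edgeR), and it passed the threshold without M3 (adjusted p = 0.0458) or without M6 (0.0327). M1 and M3, both Brca2 -/-, lay at 177 and 1589.8. miR-30d differed least, with 391, 219, 198, 358 and 261 in the tumors against 404 to 532 in the tubes. Its groups did not overlap on this scale, and its log2 fold change was -0.71 (standard error 0.42, 95% interval -1.58 to 0.17, adjusted p = 0.267 by edgeR).

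The size of these differences depends on the scaling, and so does the lack of overlap between M and CT. Relative to the scale used here, that of TMM, another way of scaling, was 1.53 in CT5 and 0.73 in M6. TMM thus lowers CT5 and raises M6, and the groups of some members then overlap. Of the members 4 were themselves among the 100 scaling miRNAs, and taking them out of that set changed little, with log2 fold changes of -1.47, -1.84, -1.69, -0.77 and -1.22 for miR-30a to miR-30e. Other scales moved them further. With miR-425, the reference miRNA of the study for qPCR and not for these counts, as the scale, miR-30b alone passed (adjusted p = 0.0118 by edgeR). With the positive ligation controls as the scale 0 of the members passed (adjusted p from 0.330 to 0.710 by edgeR). All 5 log2 fold changes stayed below 0 in both. Over 6 scalings the median of all miRNAs moved between 0.18 and 0.66. Relative to that median, miR-30a lay between -1.71 and -1.63, miR-30b between -2.07 and -1.70 and miR-30c between -2.004 and -1.42. In the same terms miR-30d lay between -1.04 and -0.99 and miR-30e between -1.49 and -1.45. A change of scale shifts all miRNAs of a sample alike. These relative values therefore move little by construction and do not show how firm the differences are. The share of all calls that were higher in M was 70.7% here, 55.0% with TMM and 87.5% with miR-425.

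Other measures moved with the same comparison. The 4 housekeeping mRNA probes, as a geometric mean relative to the miRNA scale, were 0.842 to 2.70 in CT and 4.70 to 34.8 in M. Of 5 miRNAs of ciliated epithelium, 4 were lower in M, with sums of 27.9 to 88.3 against 312 to 3767. Of 5 miRNAs of epithelium, 1 was lower, with sums of 242 to 42009.8 in M (median 2235) against 9285 to 11037.5 in CT (median 9744). Of 8 miRNAs of smooth muscle and stroma 3 were lower (4015 to 14690.3 against 6620 to 16806.6), and of 5 leukocyte miRNAs 1 was higher (967 to 6301 against 593 to 1164). Of 4 erythrocyte miRNAs 1 was higher (2233 to 14358 against 2881 to 4771), as was 1 of the 2 endothelial ones (7887 to 19897 against 4224 to 6683) and 1 of the 3 of liver (64.2 to 587 against 66.2 to 93.7). The part of these measures in the differences of the miR-30 members was not tested.

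**Figure D2:**
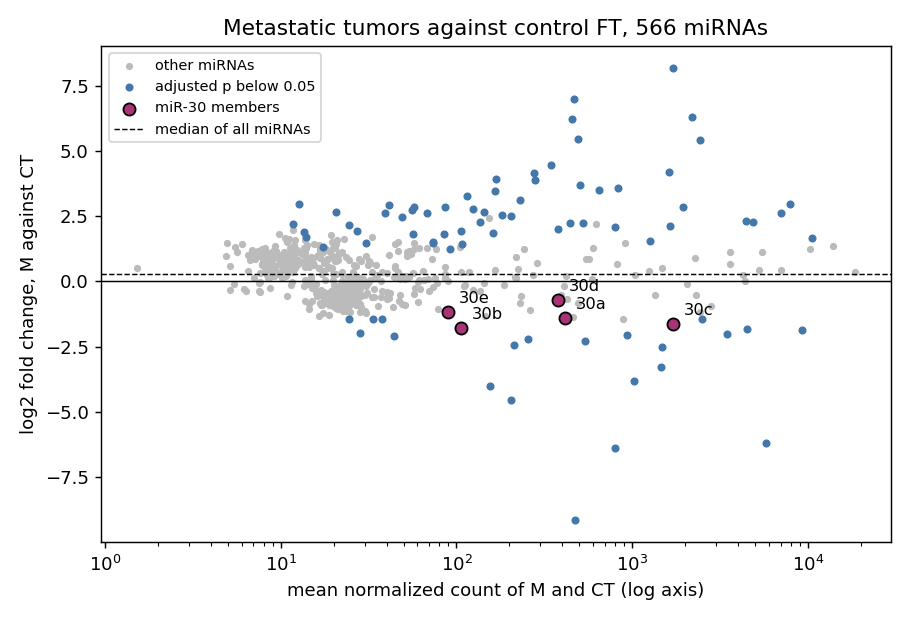
Log2 fold change of M against CT by edgeR for the 566 miRNAs, against the mean normalized count of both groups (log axis). Blue points passed the threshold of 0.05, the 5 miR-30 members are large and labelled by letter, and the dashed line is the median of all miRNAs, 0.29. All 5 members lie below the dashed line, between -1.78 and -0.71.

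Ratios between members of one sample do not depend on the scaling. Of the 10 pairs of members, 1 had ratios that did not overlap between M and CT, while 37.1% of all pairs of miRNAs averaging 50 counts or more did so. This pair was miR-30d over miR-30a. Its log2 ratio was between -0.61 and -0.12 in CT, with a mean of -0.36 ± 0.19 (SD, n = 5), and between 0.10 and 0.59 in M, with a mean of 0.31 ± 0.19 (SD, n = 5). The count of miR-30d exceeded that of miR-30a in 5 of 5 tumors and in 0 of 5 control tubes. In FT the same log2 ratio was between -1.32 and -0.23, again below every tumor, and 5.62% of pairs did not overlap between M and FT. No test was made on ratios.

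The ratio of miR-30c to miR-30a spread more widely in FT and M than in CT. The count of miR-30c was 2.81 to 6.48 times that of miR-30a in CT, whereas in M the ratio was 0.57 in M1, 1.06 in M4, 2.80 in M2, 6.63 in M6 and 10.3 in M3. The tumors thus spread on both sides of the tubes. In FT it was 0.50 in FT2, 0.41 in FT4, 2.11 in FT3, 3.48 in FT1 and 4.12 in FT5. On the log2 scale the SD was 0.52 in CT, 1.57 in FT and 1.75 in M, against 0.19, 0.44 and 0.19 for miR-30d over miR-30a.

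**Figure D3:**
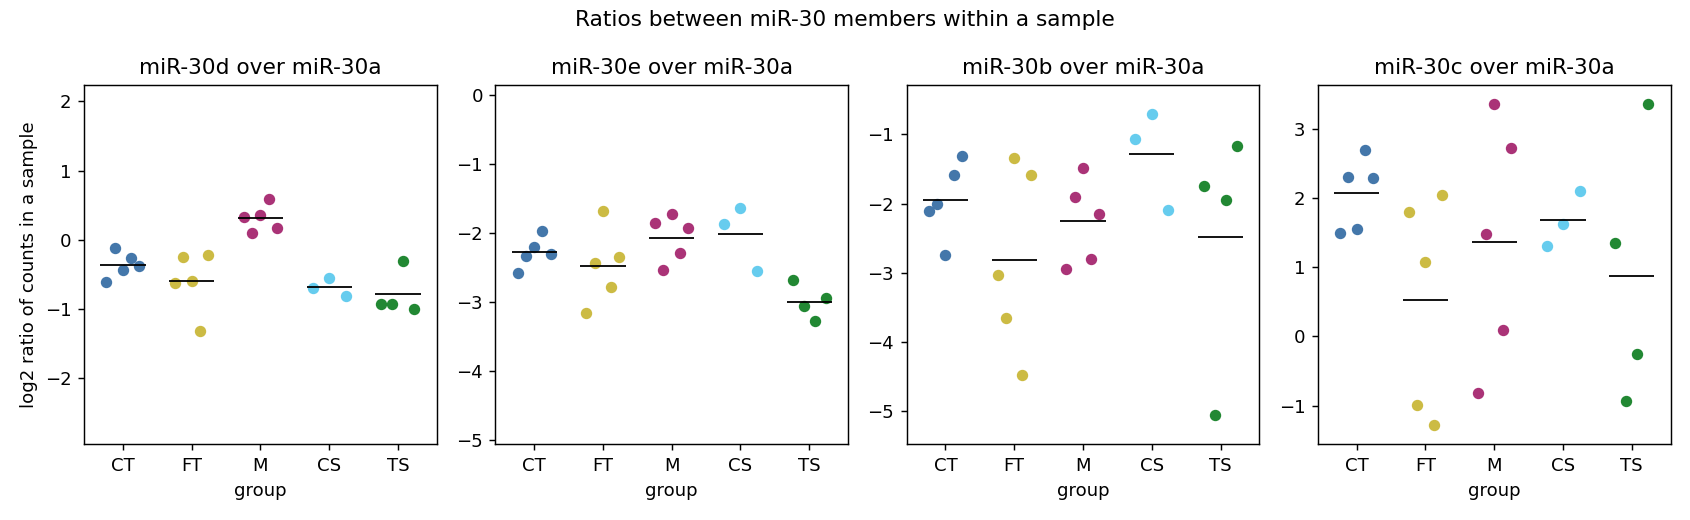
Log2 ratio of the count of miR-30d, miR-30e, miR-30b and miR-30c to that of miR-30a within each sample, by group; every panel spans the same number of log2 units, points are samples and black lines are group means. The miR-30d ratio of the 5 M samples lies above those of all CT and FT samples, and the miR-30c ratio spreads widely in FT, M and TS.

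Over the 15 tissue samples the members were unequally alike in their log2 normalized counts. miR-30a, miR-30d and miR-30e went together, with Pearson's r of 0.90 for miR-30a with miR-30d, 0.89 for miR-30a with miR-30e and 0.87 for miR-30d with miR-30e (Spearman's rho 0.94, 0.88 and 0.90). miR-30b and miR-30c had an r of 0.82 (rho 0.85). miR-30b was also like the first 3, with an r of 0.73 with miR-30e (rho 0.74), 0.70 with miR-30d (rho 0.76) and 0.63 with miR-30a (rho 0.68). miR-30c was less so, with an r of 0.41 with miR-30a (rho 0.38), 0.42 with miR-30d (rho 0.48) and 0.45 with miR-30e (rho 0.46). After the group means were removed r was 0.86 for miR-30a with miR-30d, 0.79 for miR-30a with miR-30e, 0.77 for miR-30d with miR-30e, 0.74 for miR-30b with miR-30c, between 0.40 and 0.58 for miR-30b with the other 3, and between 0.15 and 0.21 for miR-30c with them. These correlations describe samples that share their scaling and, in part, their group. miR-30a and miR-30e differ by 1 base, and the part in these correlations of a probe binding another member was not tested. The hairpin neighbours miR-30a and miR-30c, miR-30e and miR-30c, and miR-30b and miR-30d were not the most alike pairs. In the 7 plasma samples miR-30a and miR-30d again went together (r 0.96, rho 0.86), while miR-30a and miR-30c had an r of -0.61 (rho -0.50).

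The comparison of FT with CT asked which miRNAs differ in the induced tube. Of the members 0 passed the test, as did 0.177% of all miRNAs, while 0 of the members and 7.24% of all miRNAs had an unadjusted p below 0.05 by edgeR. DESeq2 and limma also called 0 of the members. The groups overlapped for all 5 members. Over all miRNAs, 0.53% were higher in FT without overlap and 0% were lower. Of the 10 ratios between members 0 were without overlap, against 1.55% of pairs of miRNAs averaging 50 counts or more. The log2 fold changes were 0.31 for miR-30a (95% interval -0.81 to 1.42), -0.24 for miR-30b (-1.45 to 0.97), -0.83 for miR-30c (-2.17 to 0.52), -0.03 for miR-30d (-1.07 to 0.999) and 0.18 for miR-30e (95% limits -0.846 and 1.202). The log2 fold changes found in M lie inside these intervals for miR-30c and miR-30d and below them for miR-30a, miR-30b and miR-30e. Those in M have their own 95% intervals, -2.30 to -0.52 for miR-30a, -2.63 to -0.92 for miR-30b and -1.93 to -0.39 for miR-30e. These overlap the intervals in FT, and both share the CT samples, so this is no test of M against FT. Adjusted p-values in FT against CT were between 0.759 and 0.987 by edgeR. Each of the 5 changed sign under at least 1 other scaling, test or left-out sample.

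**Figure D4:**
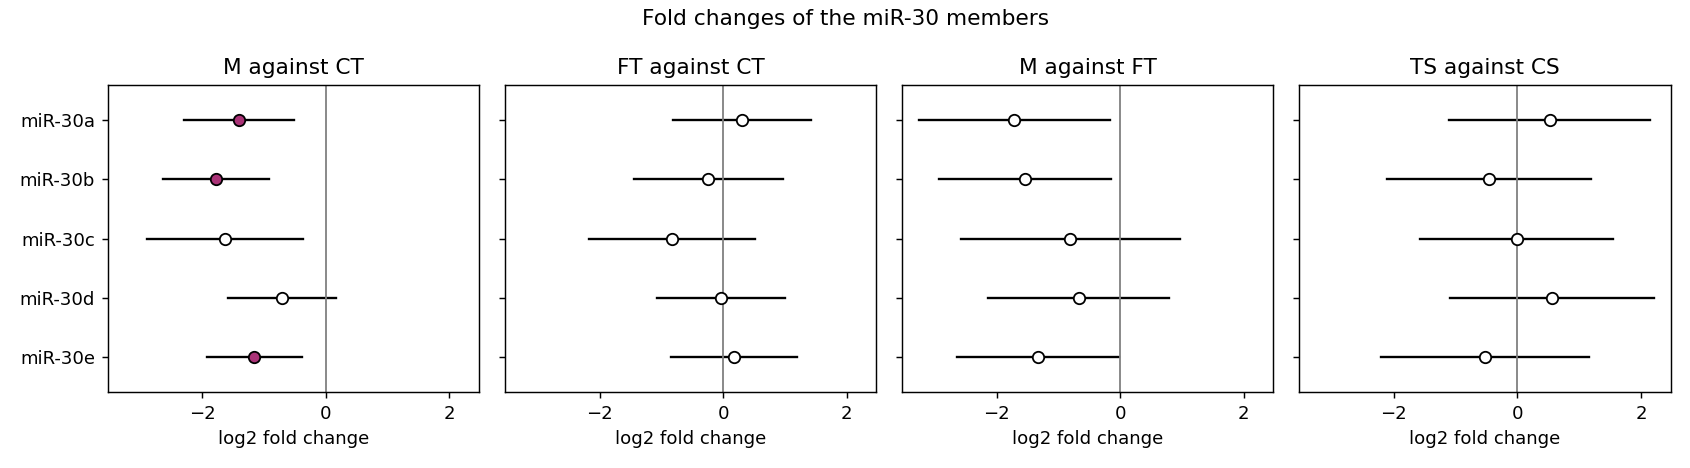
Log2 fold change by edgeR of the 5 members in each comparison, with 95% intervals from the fitted standard errors. Filled points passed the threshold of 0.05 after Benjamini-Hochberg adjustment over 566 miRNAs. Filled points are seen for miR-30a, miR-30b and miR-30e in M against CT.

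The FT samples spread more than the CT samples for all 5 members, though not always more than the tumors. Coefficients of variation of miR-30c were 72.5% in FT, 83.7% in M and 24.9% in CT. Those of miR-30a were 54.1% in FT, 24.9% in M and 20.7% in CT. miR-30c was 2353 in FT1, 135 in FT2, 1757 in FT3, 563 in FT4 and 2449 in FT5. FT1, FT3 and FT5 were within the range of CT, and FT2 and FT4, the tubes with both copies of Brca1 or of Brca2 deleted, were below the lowest CT sample. The tumors with both copies of Brca2 deleted, M1 and M3, did not share a low value, and with so few mice of each genotype no test was made. miR-30b was 82.7, 21.3, 328, 61.6 and 197 in FT1 to FT5. FT2 and FT4 were again below all CT samples, but the 9 counts of FT2 were not above background. miR-30a was 675, 268, 834, 1372 and 594 in FT1 to FT5. FT2 was below and FT3 and FT4 above every CT sample, so that FT4 had the highest miR-30a of all tissue samples together with a low miR-30c. miR-30e was 75.7, 49.7, 259, 199 and 117, with FT2 lowest and FT3 highest. miR-30d was 437, 225, 553, 551 and 507, with FT2 alone below the CT range. FT2 was the lowest FT sample for all 5 members. It also had the highest housekeeping mRNA signal of the FT samples, 31.1 relative to miRNA against 0.517 to 8.39 in the other 4, whose part in its low values was not tested.

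The direct comparison of M with FT tested whether the 2 tissues differ. The members were all lower in M, with log2 fold changes of -1.72 for miR-30a, -1.54 for miR-30b, -0.81 for miR-30c, -0.67 for miR-30d and -1.33 for miR-30e. Adjusted p-values were between 0.441 and 0.993 by edgeR, so 0 of the members passed, against 1.59% of all miRNAs (0.707% as lower in M), and 43.8% of all miRNAs had a log2 fold change below 0. At an unadjusted p below 0.05, 3 members (miR-30a, miR-30b and miR-30e) and 8.3% of all miRNAs were counted, 3.53% as lower in M, and DESeq2 and limma also called 0 members after adjustment. A difference between M and FT was therefore not shown for any member. In 2 mice both tissues were taken, and the sources used here do not name them, so all samples were treated as separate.

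In plasma, the comparison of TS with CS asked whether circulating levels differ in mice with tumors. Of the 566 miRNAs 0% passed by edgeR, and of the members 0 passed, with 0 members and 7.42% of all miRNAs at an unadjusted p below 0.05. DESeq2 and limma called 0 members as well. Log2 fold changes were 0.53 for miR-30a (95% interval -1.10 to 2.15), -0.46 for miR-30b (-2.11 to 1.19), -0.01 for miR-30c (-1.57 to 1.55), 0.56 for miR-30d (-1.09 to 2.21) and -0.52 for miR-30e (-2.20 to 1.16). With 4 samples against 3, differences of several-fold either way lie within these intervals.

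miR-30c was 575, 709 and 1178 in CS2, CS3 and CS4, and 496, 246, 456 and 2054 in TS1 to TS4. TS4 was above and the other 3 TS samples below all CS samples. miR-30a was 232, 229 and 273 in CS2 to CS4, and 194, 472, 546 and 199.98 in TS1 to TS4. TS2 and TS3 were above and TS1 and TS4 below the control range. miR-30d was 143, 155 and 155 in CS2 to CS4, where CS2 and CS3 were not above background, and 102, 248, 441 and 100.0 in TS1 to TS4, so that TS2 and TS3 were again the high ones. miR-30b and miR-30e had counts of 10 to 174 in plasma, of which 7 of 14 were not above the negative controls. Of the 10 pairs of members, 2 had ratios that did not overlap between TS and CS. They were miR-30e over miR-30a and miR-30e over miR-30d, both lower in TS. Among pairs of miRNAs averaging 50 counts or more the share was 9.34%, but miR-30e did not reach that mean in plasma, so these 2 pairs lie outside that set. The miR-30e counts of CS2 and CS3 (20 and 10) and of TS1 and TS3 (22 and 30) were not above the negative controls. With the controls subtracted, the log2 fold change of miR-30e went from -0.52 to 0.46. Erythrocyte miRNAs, which rise in plasma when red cells break, summed to 17081 to 44989 normalized counts in CS and 7721 to 65025 in TS. TS4, with the highest miR-30c, had the lowest of these sums, 7721, and CS4, with the highest miR-30c of CS, had the lowest of its group, 17081. Their part in the plasma levels of miR-30c was not tested.

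Ratios can be set side by side for tube and plasma of the same mouse, since they need no common scale. The count of miR-30c over that of miR-30a was 4.97 in CT2 and 2.48 in CS2, 2.94 in CT3 and 3.10 in CS3, and 6.48 in CT4 and 4.32 in CS4. In the induced mice it was 0.50 in FT2 and 2.55 in TS1, 2.11 in FT3 and 0.52 in TS2, 0.41 in FT4 and 0.84 in TS3, and 4.12 in FT5 and 10.3 in TS4. These 3 control mice stayed between 2.48 and 6.48 in both materials. Among the induced mice, that of FT4 and TS3 was below 1 in both materials, that of FT5 and TS4 in neither, and each of the other 2 in 1 of them.

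The miRNAs most like the family were sought by Pearson's r with the mean log2 level of the 5 members over the 15 tissue samples, among 136 other miRNAs averaging 50 counts or more. The highest were miR-29b (r 0.91, rho 0.89), miR-29c (0.90, 0.86), miR-34b-5p (0.87, 0.86), miR-29a (0.87, 0.86) and miR-148a (0.86, 0.81). The miR-29 members are known to repress collagen genes, and miR-34b-5p marks ciliated cells. With group means removed these r were 0.82, 0.78, 0.69, 0.68 and 0.86. The lowest r were those of miR-378 (-0.93), miR-22 (-0.93), miR-532-5p (-0.93), miR-1944 (-0.93) and miR-210 (-0.91), the last being a miRNA induced by hypoxia. In the 7 plasma samples, among 91 miRNAs, the highest r were lower, at 0.66 for miR-191, 0.65 for miR-205, 0.61 for miR-24, 0.51 for miR-1966 and 0.49 for miR-1906.

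Other miRNAs known to act on genes of epithelial-mesenchymal transition were taken as a list of 12, all on the panel and chosen with earlier results of these data known. In M against CT, 5 of them were lower (miR-141, miR-204, miR-29a, miR-29b and miR-29c) and 1 was higher (miR-205). Of these, miR-29a, miR-29b and miR-29c are of 1 family. Over all miRNAs 14.5% passed and 4.24% passed as lower, or 14.3% as lower among the 133 averaging 50 counts or more. miR-203 (1.23) and miR-34a (-0.44) were among those of the list that did not pass. The list had a median log2 fold change of -0.94, where that of all miRNAs was 0.29. The log2 fold changes of miR-29b and miR-29c were -3.29 (adjusted p = 0.00155 by edgeR) and -3.81 (adjusted p = 0.000104), and that of miR-29a, -1.43 (adjusted p = 0.0288), was close to that of miR-30a. Within the miR-200 family, which represses Zeb1 and Zeb2 and keeps cells epithelial, miR-141 was at -2.22 (adjusted p = 0.0257), and miR-200a (-1.43), miR-200b (0.66), miR-200c (0.01) and miR-429 (0.41) did not pass. miR-205, which also represses Zeb1 and Zeb2, had a log2 fold change of 4.20 (adjusted p = 0.0288 by edgeR), although its groups overlapped and 3 of 5 tumors were above the CT mean. In FT against CT and in TS against CS 0 of the 12 passed, beside 0.177% and 0% of all miRNAs. The medians of the list were -0.05 and -0.38 beside 0.15 and -0.89 over all miRNAs. The plasma value of -0.89 depends on probes near background and on the scale. It was 0.32 among the 95 miRNAs averaging 50 counts or more and -0.05 over all miRNAs with TMM. It is therefore not read as a fall of plasma miRNAs.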

How the data were processed

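miRNA profiles of 15 tissue and 7 plasma samples were measured by NanoString nCounter profiling. The authors deposited barcode counts, whole numbers per probe and sample, for 626 probes, of which 566 are mouse miRNAs and 60 are controls, housekeeping mRNAs or probes of other species. The deposited counts do not carry the nSolver normalization of the methods, and whether they were corrected to controls before deposit is not given in the sources used here. All columns were matched to a sample. M5 and CS1 were not analysed here. Groups were taken from the sample titles and Brca genotypes from the study; the other alleles of the mice are not reported here. Total miRNA counts per sample, given in the report, and the negative controls set the precision.

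Following the methods, counts were scaled to the geometric mean of the 100 (tissue) or 30 (plasma) most abundant miRNAs by mean count, without background subtraction. Groups were compared in pairs with edgeR 4.0.16 in R 4.3.3 (glmQLFit and glmQLFTest, these geometric means as library sizes, no filter, Benjamini-Hochberg adjustment over 566 miRNAs, threshold 0.05). Standard errors were derived from the F statistic. Samples are separate specimens of the labels, and p-values measure the spread between them. The fit was tested on simulated data. The miR-30 probes, the lists and the rule for named miRNAs (the members, miRNAs of the same seed, the 5 most and least alike and the listed miRNAs) were chosen with earlier results of these data known. Alternatives were 5 other scalings, subtraction of the negative controls, DESeq2 1.42.0, limma 3.58.1 with pseudocounts of 0, 1 and 10, the methods' t-test, a minimum mean count of 50, a joint tissue fit, sample numbers as a block and each sample left out. The t-test was run here as Welch's test on log2 normalized counts with Benjamini-Hochberg adjustment, and the paper describes no adjustment of its t-test. Summaries and plots were made in Python 3.11.15 (pandas 2.3.3, matplotlib 3.10.9).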

Additional observations from a re-analysis of the deposited data

Results flagged for a closer look

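On the scale used here miR-30d in FT2 stood apart from the other FT samples, with a normalized count of 225 against 437 to 553. Its gap to the next sample was 0.739 of the range of the group on the log2 scale, above Dixon's critical value for 5 samples. It was the only value so marked among 20 groups of 4 or 5 samples examined, and chance marks about 1 group in 20. FT2 also had the highest housekeeping mRNA signal of the FT samples, and its part in this value was not tested. Relative to the scale used here, that of miR-425 was 0.70 in FT2 and 1.34 in FT1. With miR-425 scaling FT2 therefore lies close to FT1, and the mark does not hold on that scale.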

How the results depend on the processing

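All 5 members stayed below 0 in M against CT and in M against FT under the 14 alternatives and with each sample left out. Of the 3 members past the threshold in M against CT, 1 remained with miR-425 scaling (miR-30b), 0 with positive ligation control scaling and 0 with CT, FT and M fitted together (miR-30b at an adjusted p of 0.0586), and 1 to 4 passed with single samples left out. DESeq2 and limma called 4, adding miR-30c. The methods' t-test, Benjamini-Hochberg adjusted here, called 2, without miR-30e (adjusted p = 0.0574). The paper describes no such adjustment, so counts by this test are not those of the paper. Over all miRNAs, 82 passed in M against CT, 151 with TMM, 163 with median-of-ratios scaling, 48 with positive ligation controls, 155 with negative controls subtracted, 32 with the methods' t-test, 52 fitted together, and 50 (without CT4) to 101 with samples left out. In FT against CT 1 passed, 2 with TMM, 2 with median-of-ratios scaling, 4 with negative controls subtracted, 3 with DESeq2, and 0 with miR-425 or positive ligation scaling, limma (pseudocounts of 0, 1 and 10), the methods' t-test or a minimum mean count of 50, and 0 to 12 (without FT3) with samples left out. In M against FT 9 passed, 2 with miR-425, 25 with DESeq2, 5 with limma at each pseudocount, 0 with the methods' t-test, 23 fitted together, and 4 (without FT3) to 33 (without FT2) with samples left out.

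The log2 fold changes that changed sign all lay in comparisons in which no member passed. In FT against CT, miR-30d became 0.038 with TMM, 0.14 with median-of-ratios, 0.34 with miR-425 and 0.80 with positive ligation scaling, miR-30b 0.076 with miR-425 and 0.14 with positive ligation scaling, miR-30c 0.34 with positive ligation scaling, and miR-30e -0.064 with limma and with the methods' t-test, -0.061 with a pseudocount of 1 and -0.040 with 10. With samples left out, miR-30a ranged from -0.030 to 0.52, miR-30b from -0.83 to 0.031, miR-30d from -0.11 to 0.14 and miR-30e from -0.16 to 0.39. In TS against CS, miR-30b became 0.41 with TMM, 0.48 with median-of-ratios, 0.22 with miR-425, 0.85 with positive ligation scaling and 0.050 with negative controls subtracted. miR-30c became 0.85, 0.96, 1.11, 1.09 and 0.044 under these, and 0.00051 without the members in the scale. miR-30e became 0.064 with TMM, 0.17 with median-of-ratios, 0.15 with positive ligation scaling and 0.46 with negative controls subtracted. With samples left out, miR-30c ranged from -1.04 to 0.34 and miR-30d from -0.011 to 0.80. The minimum mean count of 50 left out miR-30e in plasma. The cause of these changes was not tested, and plasma counts near the negative controls limit miR-30b and miR-30e most.

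Same-numbered samples were not treated as pairs, since equal numbers do not mark the same mouse in the groups compared. Their deviations correlated at -0.183 to 0.118 in M against CT and -0.375 to 0.299 in FT against CT. The range was -0.0522 to 0.322 in TS against CS and -0.368 to 0.306 in M against FT. A block on the numbers keeps only those found in both groups, which left out CT5 and M6 in M against CT and TS1 in TS against CS. With the numbers as a replicate block, 1 member passed in M against CT (miR-30c, -2.49, adjusted p = 0.0195, with miR-30b at 0.0650), miR-30e in FT against CT was -0.057, and over all miRNAs 0 passed in FT against CT, 96 in TS against CS (0 without the block) and 1 in M against FT. In M against CT 1 of 4 numbers correlated best with its own. Calls made with the block, among them the 96 in TS against CS, rest on numbers that do not pair mice.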
